A study of Homo sapiens with 18 samples.

Results

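The third RNA-seq experiment compared ABCC1-overexpressing cells with empty vector control cells, and its 6 libraries were taken by their titles from the 18 of the series. Each line had 3 libraries. The series measured the transcripts of BE(2)-m17, a human neuroblastoma cell line, in 3 such experiments, to ask which genes move when the transporter ABCC1 is overexpressed in cells that make the amyloid precursor protein (APP).

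The 3 empty vector libraries came from cells carrying pSBbi-Hyg-APP and pSBbi-Pur, and the 3 ABCC1 libraries from cells carrying pSBbi-Hyg-APP and pSBbi-Pur-ABCC1(WT). Both lines therefore held the APP transgene and both resistance genes, and the vectors hold codon-optimized ABCC1 and APP cDNA in transposons selected as stable pools. Cells were plated at 14000000 per well with daily medium changes, and RNA was taken on day 4. The labels do not name the state of the cells, and this experiment was taken as the newly transfected one from the order in which the paper lists the repeats. One pool per vector means that an effect of ABCC1 and a difference between the pools cannot be told apart. The study's methods describe one plating of each line per week, but the labels do not tie the 3 libraries of a line to separate weeks or transfections. The p-values therefore measure the spread between these libraries, and its source was not tested.

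ABCC1 is an ATP-driven pump of the plasma membrane that exports glutathione conjugates, drugs and other organic anions. Neuroblastoma arises from the sympathetic lineage, and its adrenergic cells are held in that state by transcription factors such as PHOX2A, HAND2 and GATA3 and make catecholamines. Immediate early genes are transcribed within minutes of a stimulus without new protein synthesis, whereas ATF4 is the transcription factor that raises amino acid and one-carbon enzymes when amino acids run short.

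The vector ABCC1 sequence checked the labels. The control libraries held 1, 0 and 3 read pairs on it and the ABCC1 libraries 51035, 57604 and 58631, which is at least 16521-fold higher when each control library is set to the floor of 3 counts. The vector APP sequence stood at 278, 429 and 262 CPM (normalized counts scaled to a common library size of 1000000) in the controls and at 232, 287 and 276 CPM with ABCC1, and these groups overlapped (log2FC -0.29, edgeR adjusted p = 0.541). Endogenous ABCC1 was at 109, 136 and 91.7 CPM in the controls and 136, 146 and 138 CPM with ABCC1. Its log2FC was 0.32 ± 0.18 (SE, edgeR adjusted p = 0.407).

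The depth of a library, as the pairs counted on any gene or vector, was 8866994 to 13332413. The libraries also held reads spread over silent genes, measured on 263 olfactory receptor genes that overlap no other gene. This level was 1.69, 1.59 and 1.75 CPM per kilobase of exon in the controls and 1.56, 1.25 and 1.20 with ABCC1, so it was lower in every ABCC1 library. A gene was taken as well expressed when its mean over the 6 libraries was at 10 times the mean olfactory level or more, that is at 15.1 CPM per kilobase. That mean spans both lines, so a gene could pass through its higher line alone. EGR1, for example, was at 12.5 CPM per kilobase in the controls, and PCK2 at 13.7 with ABCC1. Of the 8 markers of neuroblastoma fixed for the check, 6 were well expressed and ISL1 stood just under the threshold, at 9.9 times the olfactory level. The remaining marker lay below 2 times that level. The markers of Schwann lineage cells, fibroblasts, endothelium and leukocytes had no well-expressed member, and their summed levels per list were 41.7 to 243 CPM in the controls and 29.7 to 221 CPM with ABCC1. The fibroblast marker THY1 came nearest to the threshold, at 9.07 times the olfactory level.

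One library in each line stood apart from the other two. Relative to the mean of all 6 libraries, well-expressed genes had a median log2 deviation of -0.22, 0.19 and -0.18 in empty vector replicates 1, 2 and 3 and of -0.08, 0.16 and 0.16 in ABCC1 replicates 1, 2 and 3. Empty vector replicate 2 therefore lay beside ABCC1 replicates 2 and 3, and ABCC1 replicate 1 lay closer to the other two controls. The part of this split in each result was not tested. The calls over all genes, over well-expressed genes and in each gene list were repeated without each library. So was the count of genes whose log2FC differed between the third and second experiments. The counts by exon number, by promoter motif and of shared direction across experiments were not repeated in this way.

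**Figure D1:**
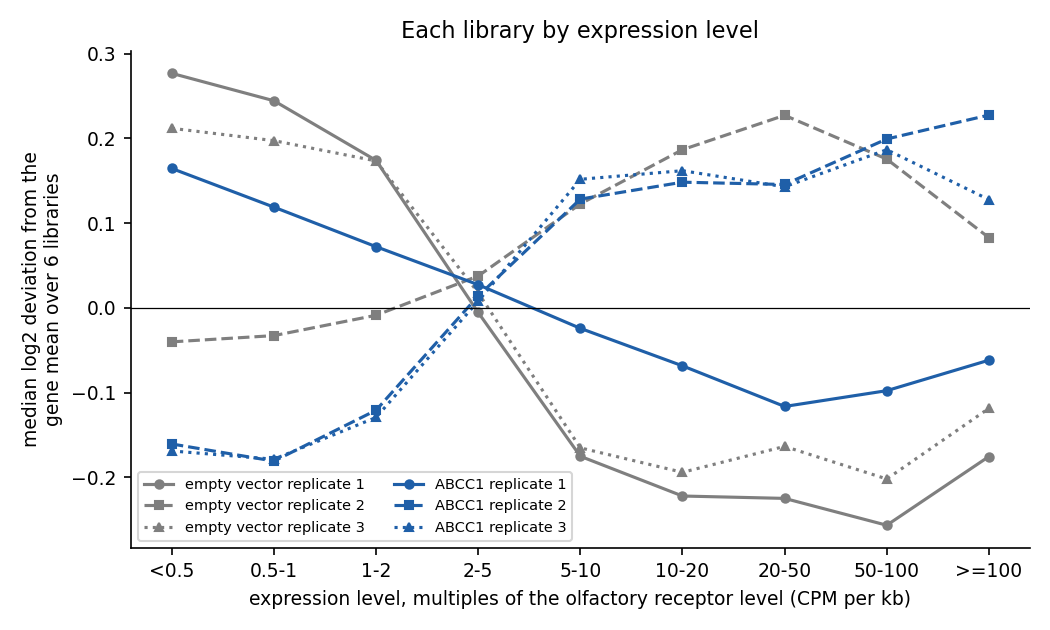
Median log2 deviation of each library from the gene mean over the 6 libraries (y axis) in bins of expression level given as multiples of the olfactory receptor level (x axis). Grey lines are empty vector and blue lines ABCC1 libraries. Empty vector replicate 2 follows ABCC1 replicates 2 and 3 above 5 times the olfactory level.

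Of 36509 genes tested, 1021 (2.8%) were called at an edgeR adjusted p of at most 0.05. They comprised 741 higher (2.03%) and 280 lower (0.767%) genes in ABCC1-overexpressing cells. At the adjusted p of at most 0.001 used by the study, 195 genes (0.534%) were called, and 13 of them (0.0356%) also had an absolute log2FC of at least 1.5. Among the 2598 well-expressed genes tested, 205 (7.89%) were called, of which 177 were higher (6.81%) and 28 lower (1.08%). These counts include genes, such as EGR1 and PCK2, that passed the level filter through their higher line alone. The groups did not overlap in 200 of the 205, against 21.5% of all well-expressed genes.

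The balance of higher and lower calls depended on the scale. The median log2FC was -0.09 over all tested genes, -0.32 over olfactory receptor genes and 0.15 over well-expressed genes. When the well-expressed genes were normalized and fitted alone, their median log2FC was 0.01, and 908 of 2617 (34.7%) were called, 458 higher (17.5%) and 450 lower (17.2%). On that scale 172 of the 177 higher calls and all 28 lower calls were still called in the same direction. No log2FC of the 205 genes changed sign in any of the 17 alternatives run, and 70 were called without each of the 6 libraries in turn. With the olfactory level as a covariate, however, 31 of the 205 were still called, and the well-expressed calls were 16 higher and 21 lower. In all 17 alternatives 10 of the 205 were called. The olfactory level was lower in every ABCC1 library, so this covariate overlaps with the line term. A call lost in that fit, here or in the lists below, therefore cannot separate background from a difference between the lines. Without empty vector replicate 2 the well-expressed calls numbered 774 and without ABCC1 replicate 1 they numbered 357, whereas leaving out any other library gave 87 to 104. Of the 205 calls, 199 and 191 remained without empty vector replicate 2 and ABCC1 replicate 1. Without empty vector replicate 1 or 3 or ABCC1 replicate 2 or 3, 101, 91, 87 and 94 of them remained. Of the 134 called genes that were named or listed, 50 were called without each library in turn, and most calls with an absolute log2FC below 0.8 were lost in at least one of these 4 fits. Below, the log2FC on the scale of well-expressed genes alone is given as the second scale.

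**Figure D2:**
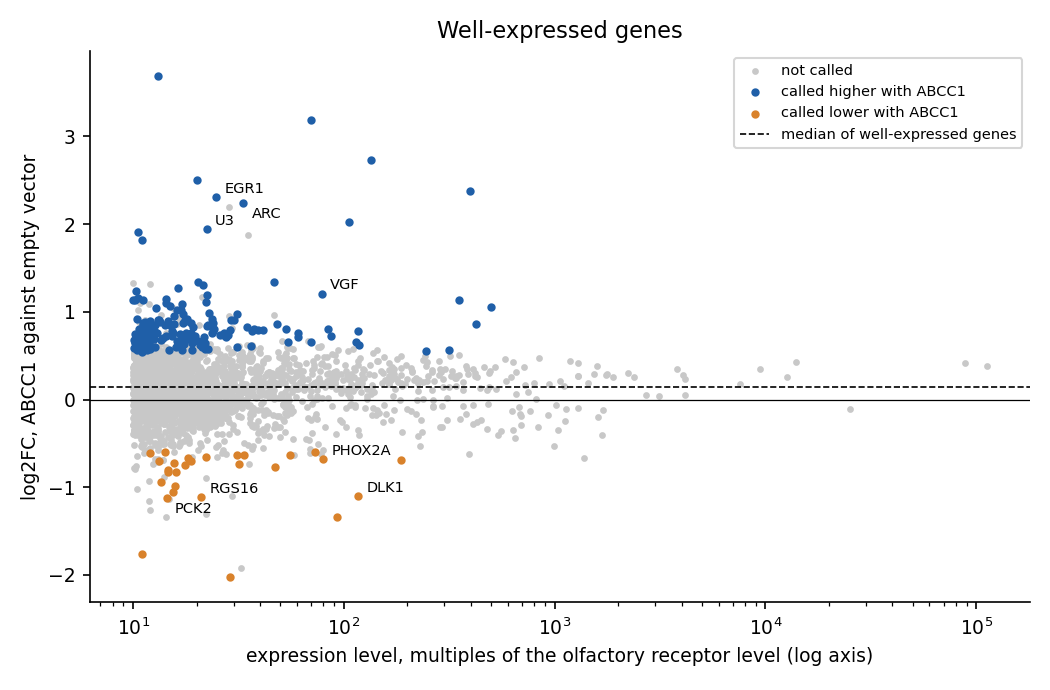
Log2FC of the 2598 well-expressed genes (y axis, ABCC1 against empty vector) against expression level in multiples of the olfactory receptor level (x axis, log scale). Blue points are the 177 genes called higher, orange points the 28 called lower, grey points were not called, and the dashed line is the median of 0.15.

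Immediate early genes held the largest named rises. EGR1, a zinc finger transcription factor (ENSG00000120738, GRCh37 chr5:137801179-137805004, plus strand), had 38.1, 49.8 and 30.0 CPM in the controls and 179, 198 and 209 CPM with ABCC1. ARC, the activity-regulated cytoskeletal protein of neurons, had 62.2, 88.6 and 59.3 CPM in the controls and 274, 365 and 353 CPM with ABCC1. The groups were far apart for both, since the lowest ABCC1 library was above the highest control library. EGR1 was 4.95-fold higher (log2FC 2.31 ± 0.19, SE, n = 3 per line, edgeR adjusted p = 8.58e-17) and ARC 4.71-fold higher (log2FC 2.24 ± 0.20, edgeR adjusted p = 4.59e-15). On the second scale the log2FC was 2.18 and 2.10, and both were called in all 17 alternatives.

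Of the 32 immediate early genes tested, 9 were called higher (28.1%, against 2.03% of all genes tested) and none lower, with a median log2FC of 0.13 over the list, against -0.09 over all tested genes. Of the 9 well-expressed members, 4 were called higher and 3 lower on the second scale, with a median of -0.05. Leaving out single libraries gave 6 to 10 called higher, and the fit with the olfactory level as a covariate gave 4. CSRNP1, a nuclear protein induced by AXIN1, stood at 22.2, 22.9 and 23.6 CPM in the controls and 51.0, 65.6 and 73.7 CPM with ABCC1 (log2FC 1.47, edgeR adjusted p = 1.96e-10). The AP-1 subunits JUNB and JUND rose by log2FC 1.07 and 0.73, with adjusted p of 3.11e-06 and 0.0232 in edgeR. IER2, IER3 and the MAP kinase phosphatases DUSP5 and DUSP6 rose by log2FC 1.16, 0.78, 0.89 and 0.57. Other members of the same families were not called. JUN was at a log2FC of -0.09 while well expressed at 31.2 times the olfactory level, and FOS, at 1.2 times that level, was at 0.34. NAB2, a corepressor that binds EGR1, is no member of the list and rose from 28.3, 38.4 and 28.4 CPM to 56.2, 76.4 and 76.0 CPM (log2FC 1.13, edgeR adjusted p = 1.38e-06).

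The sequence upstream of EGR1 is shown because serum response factor binds CArG boxes (CC, 6 letters of A or T, GG) in the promoters of several immediate early genes. The 250 bases before its RefSeq start (GRCh38.p14 chr5:138465229-138465478, plus strand, 5′ to 3′) held 2 such matches, in capitals. A window of 250 bases before to 50 after the start held a match on either strand in 1.29% of 27305 RefSeq promoters, in 1 of the 132 called higher and in none of the 18 called lower that matched a promoter. The match is a description of the letters only.
EGR1: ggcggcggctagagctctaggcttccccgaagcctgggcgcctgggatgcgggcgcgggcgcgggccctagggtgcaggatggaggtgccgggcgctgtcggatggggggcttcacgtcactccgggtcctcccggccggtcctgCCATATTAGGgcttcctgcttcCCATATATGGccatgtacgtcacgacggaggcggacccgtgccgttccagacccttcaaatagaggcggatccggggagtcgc

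**Figure D3:**
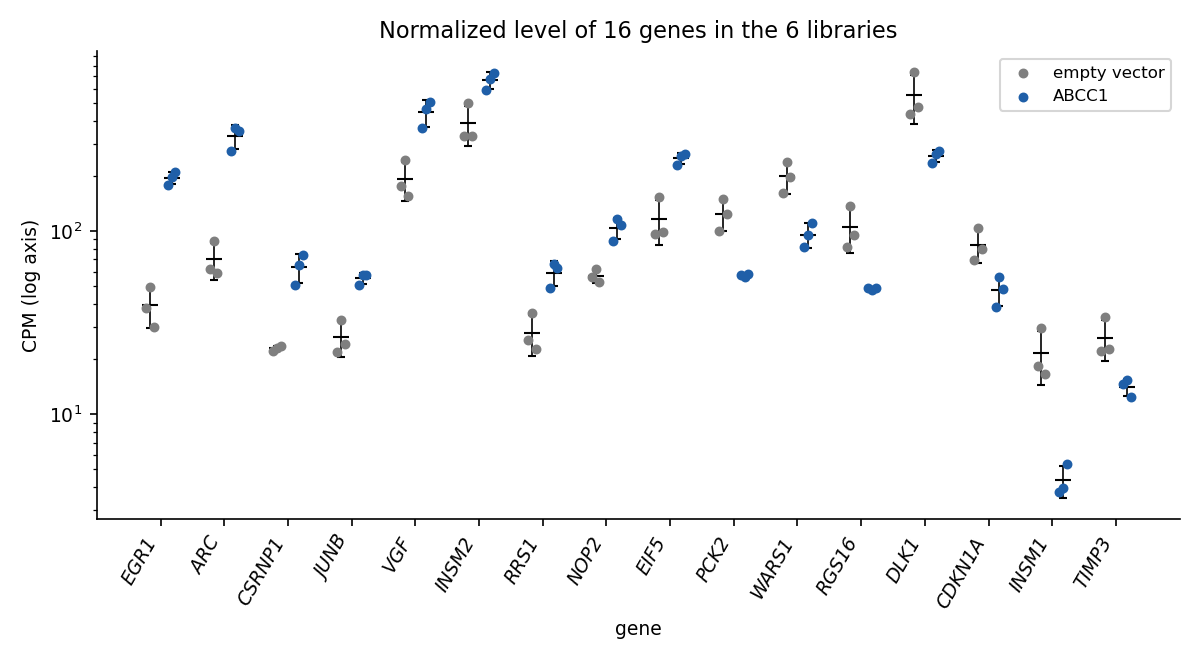
CPM of 16 genes in each library (y axis, log scale) for empty vector (grey) and ABCC1 (blue) libraries, with the mean and SD of 3 libraries as black bars. None of the 16 genes has overlapping groups, and EGR1 and ARC show the widest gaps among the genes that rose.

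A list of genes of ribosome production was drawn up from symbol families after the values were seen, so its count is a description. Of 79 tested genes whose products process ribosomal RNA or assemble ribosomal subunits, 27 were called higher (34.2%, against 2.03% of all genes tested) and none lower, 70 had a positive log2FC and the median was 0.44. Of the 32 that were well expressed, 17 were called higher, against 6.81% of all well-expressed genes. On the second scale 23 of them were called higher and 1 lower with a median of 0.49, against 17.5% and 17.2% of all well-expressed genes. The count of 27 became 50 without empty vector replicate 2, 42 without ABCC1 replicate 1 and as low as 11 without another library, and with the olfactory level as a covariate none was called. RRS1, a ribosome biogenesis regulator, had 25.3, 35.8 and 22.6 CPM in the controls and 48.6, 66.5 and 63.0 CPM with ABCC1 (log2FC 1.09, edgeR adjusted p = 3.66e-06). POP7, a subunit of RNase P and RNase MRP, rose from 16.3, 13.5 and 12.6 CPM to 24.6, 40.1 and 38.2 CPM (log2FC 1.27, edgeR adjusted p = 1.5e-07). The groups did not overlap for either gene. NOP2, an rRNA methyltransferase, SURF6, a nucleolar protein, and NOB1, the endonuclease that trims 18S rRNA, rose by log2FC 0.87, 0.84 and 0.74.

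Of 79 cytosolic ribosomal protein genes tested, none was called in either direction, although 77 had a positive log2FC and the median was 0.26. RPLP0 stood at 2788, 3708 and 3252 CPM in the controls and 3536, 4976 and 4665 CPM with ABCC1, which overlapped. Without empty vector replicate 2, however, 35 were called higher. On the second scale 7 of the 73 well-expressed members were called higher, against 17.5% of all well-expressed genes, and the median was 0.13. Mitochondrial ribosomal proteins, also listed after the values were seen, had 11 of 75 called higher (14.7%, against 2.03% of all genes tested) and none lower, with MRPS2 at a log2FC of 0.76 and MRPS34 at 0.66. That count ranged from 0 to 21 over the fits without single libraries and was 0 with the olfactory level as a covariate.

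Of 54 SR proteins and splicing regulators, listed after the values were seen, 10 were called higher (18.5%, against 2.03% of all genes tested) and none lower, and the median log2FC was 0.27. Of the 18 well-expressed members 4 were called higher, against 6.81% of all well-expressed genes, and on the second scale 8 were called higher and 3 lower with a median of 0.03. The number called higher was 3 to 26 without single libraries and 1 with the olfactory level as a covariate. RBM15, which guides m6A methylation of RNA, rose from 43.7, 52.4 and 36.1 CPM to 86.3, 96.1 and 109 CPM (log2FC 1.13, edgeR adjusted p = 2.32e-06). The splicing factors SRSF4 and SRSF6 rose by log2FC 0.78 and 0.73. CDK9, the kinase of the elongation factor P-TEFb, and ELOA, the elongin subunit, rose by log2FC 0.86 and 0.77, and YTHDF2, a reader of m6A, by 0.81. The last 3 genes were named after their values were seen.

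Among the other large rises, ZNHIT2, an assembly factor of the R2TP chaperone system, had 22.0, 22.9 and 22.6 CPM in the controls and 41.0, 62.9 and 66.5 CPM with ABCC1 (log2FC 1.34, edgeR adjusted p = 1.13e-08). EIF5, a translation initiation factor, had 96.7, 154 and 98.4 CPM in the controls and 231, 258 and 263 CPM with ABCC1 (log2FC 1.10, edgeR adjusted p = 5.56e-05). Both were separated between the lines. MAD2L1BP, which silences the spindle checkpoint, C11orf96 and UQCC4, an assembly factor of respiratory complex III, rose by log2FC 1.13, 1.24 and 1.15, as did the noncoding RNA EMSLR by 1.14. IGHD4-11, U3, MIR3929 and RNU1-1 also met the rule for large rises at log2FC of 2.02, 1.94, 1.34 and 1.14. They are short features, and IGHD4-11 never passed 6.74 CPM. RNU1-1 belongs to a family of near-identical copies, so its reads are uncertain.

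The rises were more frequent in genes of few exons. Among well-expressed protein-coding genes, 20 of 98 with a single merged exon block were called higher (20.4%) and 1 lower, and 36 of 207 with 2 or 3 blocks were called higher (17.4%) and 1 lower. With more than 20 blocks, 6 of 319 were called higher (1.88%) and 1 lower. The median log2FC fell along the same order from 0.26 to 0.08. On the second scale the single-block genes had a median of 0.13, with 31 called higher and 15 lower, and those above 20 blocks a median of -0.05, with 56 called higher and 91 lower. The same genes had medians of 0.30 and 0.34 in the second experiment and of 0.08 and -0.06 in the first.

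Targets of ATF4 held the largest named fall among well-expressed genes. PCK2, the mitochondrial phosphoenolpyruvate carboxykinase (ENSG00000100889, GRCh37 chr14:24563262-24579807, plus strand), had 100, 149 and 125 CPM in the controls and 57.5, 56.4 and 58.1 CPM with ABCC1. WARS1, the cytoplasmic tryptophanyl-tRNA synthetase (ENSG00000140105), had 161, 238 and 198 CPM in the controls and 81.5, 95.1 and 111 CPM with ABCC1. The ABCC1 libraries lay below every control library for both. PCK2 was 2.18-fold lower (log2FC -1.12 ± 0.18, SE, n = 3 per line, edgeR adjusted p = 4.84e-06) and WARS1 2.08-fold lower (log2FC -1.06 ± 0.19, edgeR adjusted p = 6.67e-05), and both were called in all 17 alternatives.

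Of 33 ATF4 targets tested, 5 were called lower (15.2%, against 0.767% of all genes tested) and 1 higher, with a median log2FC of -0.19. The number called lower was 2 to 6 without single libraries and 2 with the olfactory level as a covariate. The folate and serine enzymes MTHFD2 (log2FC -0.73), ALDH1L2 (-0.71) and PHGDH (-0.67) fell with edgeR adjusted p of 0.0187, 0.00678 and 0.027. Leaving out single libraries kept the call of MTHFD2 and of PHGDH in 2 of 6 fits each. CEBPG, a partner of ATF4, rose by log2FC 0.90 (edgeR adjusted p = 0.0017). ATF4 itself was not called, at a log2FC of 0.28, nor was SLC3A2, the heavy chain of amino acid exchangers, at 0.67. On the second scale 12 of the 26 well-expressed members were called lower and 3 higher, against 17.2% and 17.5% of all well-expressed genes. IDH2, the mitochondrial isocitrate dehydrogenase, is no member and fell by 0.74 on the log2 scale, from 82.1, 109 and 90.2 CPM to 53.3, 56.9 and 58.2 CPM.

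The sequence upstream of WARS1 is shown because the falls were few and 12 of the 18 with a promoter (66.7%) held the letters CCAAT on either strand, the core bound by NF-Y, against 37.9% of the 132 called higher, 38.8% of 1716 well-expressed genes and 35.7% of all promoters. The motif was looked at after the values were seen. WARS1 held 2 matches, in capitals, in the 250 bases before its RefSeq start (GRCh38.p14 chr14:100376328-100376577, minus strand, 5′ to 3′). The amino acid response letters TGATGNAA were in 1 of these 18 promoters and in 3.67% of all. Of the NF-Y subunits, NFYA rose by log2FC 0.81 (edgeR adjusted p = 0.00152), while NFYB and NFYC were at 0.12 and -0.08 and not called.
WARS1: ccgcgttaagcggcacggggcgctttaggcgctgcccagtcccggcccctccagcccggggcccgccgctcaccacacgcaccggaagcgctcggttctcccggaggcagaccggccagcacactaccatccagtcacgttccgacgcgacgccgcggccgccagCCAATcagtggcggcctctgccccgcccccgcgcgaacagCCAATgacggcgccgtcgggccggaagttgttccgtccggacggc

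Regulators and secretory products of the adrenergic state moved in both directions. VGF, a secreted neuropeptide precursor (ENSG00000128564, GRCh37 chr7:100805790-100808874, minus strand), had 176, 246 and 156 CPM in the controls and 364, 467 and 505 CPM with ABCC1, with no overlap. It was 2.31-fold higher (log2FC 1.21 ± 0.21, SE, n = 3 per line, edgeR adjusted p = 3.11e-05). Of 28 genes of catecholamine synthesis and chromaffin granules, 3 were called higher (VGF, TH and VIP) and 2 lower (SLC18A1 and DBH), with a median log2FC of -0.11. These are 10.7% and 7.14% of the list, against 2.03% and 0.767% of all genes tested. Without single libraries 1 to 4 were called higher and 0 or 1 lower, and with the olfactory level as a covariate none was called. TH, the first enzyme of catecholamine synthesis, rose by log2FC 0.63, and DBH, which makes noradrenaline, fell by 0.63 on the log2 scale (edgeR adjusted p = 0.0138 and 0.0455). DBH had 121, 229 and 156 CPM in the controls and 107, 111 and 111 CPM with ABCC1, and its call held in 1 of 6 fits without a library.

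The sequence upstream of VGF is shown for the cyclic AMP response letters TGACGTCA, in capitals (GRCh38.p14 chr7:101165570-101165819, minus strand, 5′ to 3′), which CREB binds. On either strand these letters were in 1.98% of all promoters, in 3.90% of well-expressed genes, in 10 of the 132 called higher (7.58%) and in none of the 18 called lower.
VGF: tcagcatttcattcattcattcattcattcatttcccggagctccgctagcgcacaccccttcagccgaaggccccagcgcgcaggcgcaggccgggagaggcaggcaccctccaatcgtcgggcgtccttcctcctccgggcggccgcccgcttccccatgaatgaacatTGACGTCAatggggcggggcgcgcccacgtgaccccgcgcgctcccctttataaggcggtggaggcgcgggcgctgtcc

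INSM1, a zinc finger repressor of neuroendocrine cells, had the largest fall of any gene named here and was not well expressed. It had 18.2, 29.7 and 16.6 CPM in the controls and 3.75, 3.95 and 5.37 CPM with ABCC1 (log2FC -2.30 ± 0.22, SE, edgeR adjusted p = 5.21e-14). The olfactory level amounted to 22.0% of its level per kilobase in the controls and 86.6% with ABCC1, so what remained with ABCC1 lay close to background. With the olfactory level subtracted, the log2FC of INSM1 was -4.54, which rests on the little that remained with ABCC1. Its relative INSM2 moved the other way, from 331, 499 and 332 CPM to 592, 681 and 732 CPM (log2FC 0.78, edgeR adjusted p = 0.022), a call that held in 2 of 6 fits without a library. Of 24 adrenergic regulators tested, 2 were called higher (INSM2 and the Notch effector HEY1, log2FC 1.17) and 2 lower (INSM1 and PHOX2A), each 8.33% of the list, against 2.03% and 0.767% of all genes tested. Without single libraries 1 to 5 were called higher and 1 to 3 lower, and with the covariate 1 and 1. PHOX2A had 214, 349 and 231 CPM in the controls and 149, 174 and 172 CPM with ABCC1 (log2FC -0.68, edgeR adjusted p = 0.0327), and was called in 1 of 6 fits without a library. HAND2, GATA3 and MYCN, at log2FC of 0.60, -0.08 and 0.27, were not called.

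Among genes of signaling, DLK1 and RGS16 fell in every fit run. DLK1, a membrane protein that antagonizes Notch (ENSG00000185559), had 436, 740 and 478 CPM in the controls and 236, 264 and 274 CPM with ABCC1. RGS16, which speeds GTP hydrolysis by G proteins (ENSG00000143333), had 81.7, 138 and 95.4 CPM in the controls and 48.8, 47.9 and 49.1 CPM with ABCC1. Neither gene overlapped between the lines, at log2FC of -1.10 and -1.11 with edgeR adjusted p of 0.000293 and 5.5e-06, and both were called in all 17 alternatives. Of 38 genes of Notch, BMP and retinoic acid signaling, 3 were called lower (DLK1, BMP7 and HES1) and 1 higher (CRABP2, a retinoic acid carrier, log2FC 0.75), with a median log2FC of -0.15. The 3 lower are 7.89% of the list, against 0.767% of all genes tested, and they numbered 2 or 3 without single libraries and 2 with the olfactory level as a covariate.

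Of 40 genes of axon guidance and adhesion, 4 were called lower (10%, against 0.767% of all genes tested) and 1 higher, with a median of -0.26. The number called lower was 1 to 5 without single libraries and 1 with the olfactory level as a covariate. The repellent SEMA3A fell from 37.7, 59.1 and 53.1 CPM to 24.8, 26.7 and 25.4 CPM (log2FC -0.96, edgeR adjusted p = 3.33e-05), and ROBO2, NRP1 and SEMA3C fell by 0.82, 0.81 and 0.70 on the log2 scale. EFNB1, an ephrin ligand, rose by log2FC 0.95. All 5 were under 3 times the olfactory level, whose lower value with ABCC1 moves with the 4 falls. The olfactory level amounted to 31.4% of the SEMA3A level per kilobase in the controls, and with it subtracted the log2FC was -1.56. GAP43, a protein of growth cones, fell from 26.3, 32.3 and 26.3 CPM to 15.1, 12.3 and 16.5 CPM (log2FC -0.95, edgeR adjusted p = 6.79e-05), whereas NEFH, the heavy neurofilament, rose by 0.79 (edgeR adjusted p = 0.0065).

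Growth control genes showed single changes. CDKN1A, the cyclin-dependent kinase inhibitor p21, fell from 69.1, 104 and 80.1 CPM to 38.6, 56.0 and 48.2 CPM (log2FC -0.83, edgeR adjusted p = 0.00103), and was called in all 17 alternatives. The stress gene GADD45A rose by 0.67. Of 42 genes of DNA replication and mitosis, CCNB2 and CDC20 were called lower (log2FC -0.70 and -0.60) and none higher, which is 4.76% of the list against 0.767% of all genes tested. Without single libraries 0 to 2 were called lower and 0 to 5 higher. Of 30 clustered histone genes tested, H2AC13 and H3C12 were called lower (log2FC -0.68 and -0.60), or 6.67% of the list, and each was called in 1 of 6 fits without a library. The list had 0 to 4 called lower without single libraries, and 4 called higher without empty vector replicate 2. With the olfactory level as a covariate no member of either list was called. Of the 26 well-expressed genes of replication and mitosis, 10 on the second scale were called lower and 3 higher, and 13 of the 25 well-expressed histone genes lower and 2 higher, against 17.2% and 17.5% of all well-expressed genes. RPL22L1, a paralog of a ribosomal protein, fell from 50.8, 67.1 and 69.7 CPM to 30.6, 34.2 and 32.7 CPM (log2FC -0.95, edgeR adjusted p = 4.28e-05). The other falls named by the rule were CLGN, PROSER1, DNAJC12 and ENPP2, at log2FC of -0.83 to -0.70, beside the genes above.

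Other lists had few called members. Of 26 heat shock genes, DNAJB1, HSPB1 and DNAJB4 were called higher (log2FC 0.96, 0.69 and 0.71) and none lower, or 11.5% of the list against 2.03% of all genes tested. Of the 18 well-expressed members 1 was called higher, against 6.81% of all well-expressed genes. On the second scale 2 of the 18 were called higher and 2 lower, against 17.5% and 17.2% of all well-expressed genes. The number of heat shock genes called higher was 1 to 7 without single libraries. Of 34 genes listed under sterol and fatty acid synthesis, the desaturases FADS2 and FADS1 were called lower (log2FC -0.91 and -0.65). The span of FADS1 lies within that of FADS2 on the other strand. The counts use no strand option, so the falls of FADS2 and FADS1 cannot be taken as separate. MYLIP, which is no synthesis enzyme, and FDFT1 were called higher (0.87 and 0.60). Each direction made up 5.88% of the list, against 0.767% lower and 2.03% higher over all genes tested. Without single libraries 1 to 6 were called higher and 1 or 2 lower. With the olfactory level as a covariate no heat shock or sterol and fatty acid gene of these lists was called. TFRC, the transferrin receptor, rose from 59.9, 65.6 and 63.1 CPM to 132, 122 and 141 CPM (log2FC 1.07, edgeR adjusted p = 1.28e-05), and SLC30A1, the zinc exporter, rose by 0.88. Single members of other lists were also called, namely SNHG15 higher, and SLC7A8, SV2C, ACTA2, TAP1 and FBN2 lower. Each was 2.56% to 4.17% of its list, against 2.03% higher and 0.767% lower over all genes tested. The groups of ACTA2 and TAP1 overlapped, and with the olfactory level as a covariate only SV2C was still called. Those called lower lay below 4 times the olfactory level. PTPRC, a leukocyte marker at 1.03 times the olfactory level, was called lower as that level was.

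No member was called among 50 nuclear respiratory chain subunits, 13 mitochondrial genome messenger RNAs, 38 glycolysis and hypoxia targets, 31 genes of the unfolded protein response, 35 ion channels, 30 ABC transporters and 33 glutathione and NRF2 targets. Of all tested genes 2.8% were called, so a count of 0 in a list of this size lies near the background. Without empty vector replicate 2, in the same order, 7, 2, 3, 8, 5, 4 and 7 members were called higher. That fit called 2344 of 39046 genes higher. In the fit of the second scale these lists had 24, 13, 16, 15, 5, 4 and 14 well-expressed members. Of these, 7, 2, 3, 3, 2, 0 and 2 were called lower and 2, 0, 0, 1, 1, 2 and 1 higher. Over all well-expressed genes 17.2% were called lower and 17.5% higher. The median log2FC of the 33 genes of the glutathione and NRF2 list was 0.12, and its most abundant members, the ferritin chains FTH1 and FTL, were at 0.29 and 0.26. The ABC transporters ranged from -0.53 to 0.67.

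**Figure D4:**
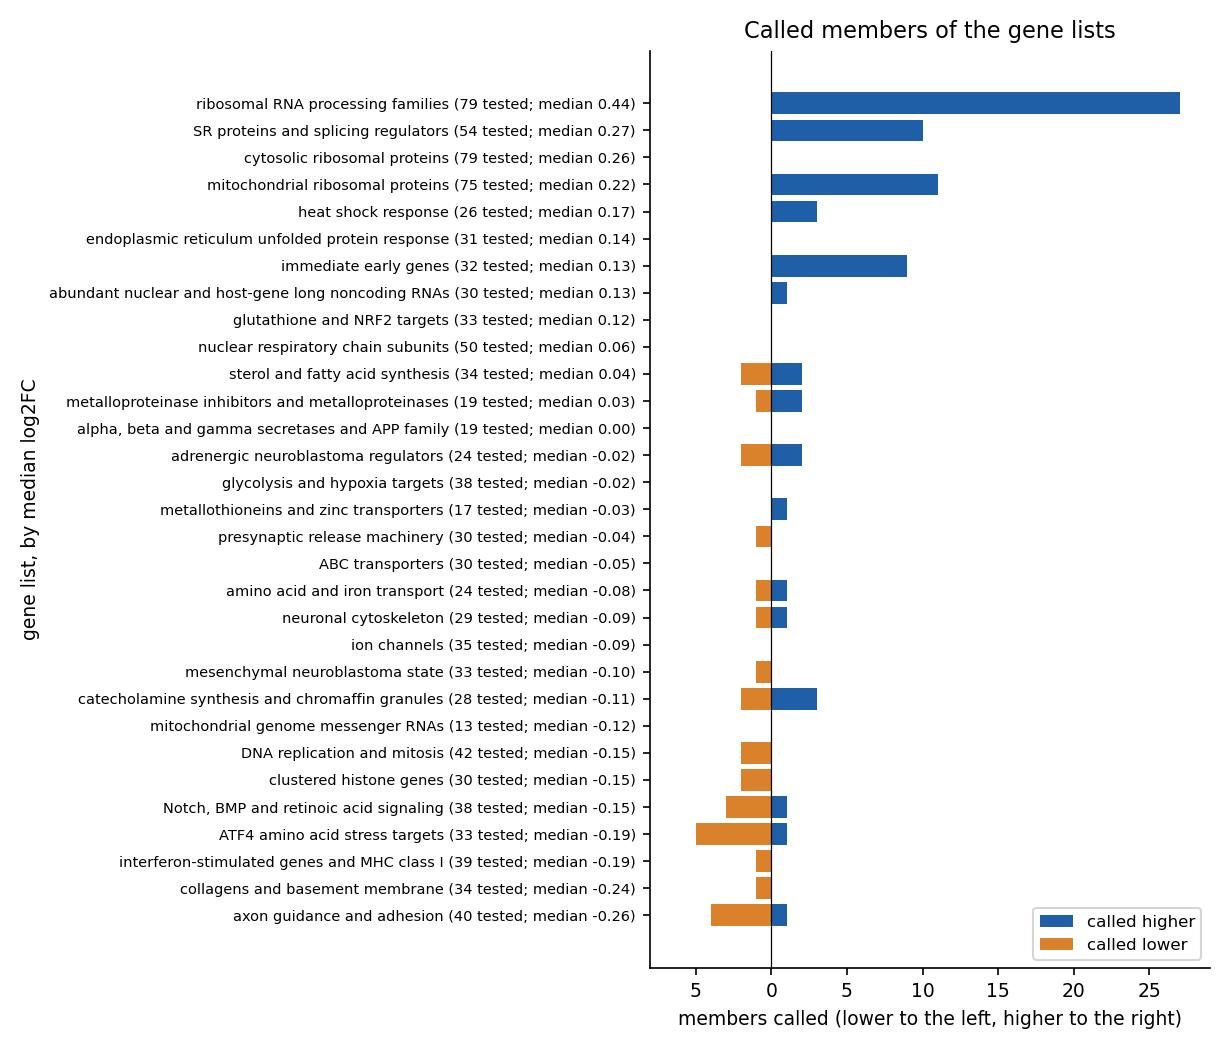
Members called higher (blue, to the right) and lower (orange, to the left) in the gene lists shown, with the number tested and the median log2FC beside the name. The lists are ordered by median log2FC, the most members called higher were in ribosomal RNA processing (27) and the most called lower in the ATF4 targets (5), and the 3 lists of ribosomal RNA processing, mitochondrial ribosomal proteins and SR proteins were drawn up after the values were seen.

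The genes of APP and its processing enzymes showed few calls. Endogenous APP had 3099, 4842 and 2980 CPM in the controls and 2841, 3388 and 3179 CPM with ABCC1, which overlapped (log2FC -0.22 ± 0.26, SE, edgeR adjusted p = 0.748). Of 19 secretase and APP family genes none was called, and the range of log2FC was -0.28 to 0.38. On the second scale 3 of the 5 well-expressed members were called lower and none higher (17.2% and 17.5% of all well-expressed genes), with a median of -0.23, and APP was one of them (log2FC -0.33, edgeR adjusted p = 0.0487). Without empty vector replicate 2, 3 members were called higher, and DESeq2 called 1 higher. TIMP3, the inhibitor of metalloproteinases that the study singled out, had 22.1, 33.8 and 22.7 CPM in the controls and 14.6, 15.3 and 12.5 CPM with ABCC1, with no overlap. It was 1.86-fold lower (log2FC -0.90 ± 0.17, SE, n = 3 per line, edgeR adjusted p = 0.00035) and was called without each library in turn. The olfactory level made up 29.4% of its level per kilobase in the controls and 43.6% with ABCC1, and with that level subtracted the log2FC was -1.38. With the olfactory level as a covariate the adjusted p of TIMP3 was 0.0692. TIMP1 and ADAM12, a metalloproteinase, were called higher (log2FC 0.63 and 0.57), which is 10.5% of 19 metalloproteinase and inhibitor genes against 2.03% of all genes tested. Each call held in 2 of 6 fits without a library and neither with the olfactory level as a covariate. CD38, the NAD glycohydrolase that the study also singled out, had 11.8, 11.3 and 11.9 CPM in the controls and 10.7, 7.74 and 5.37 CPM with ABCC1 (log2FC -0.56 ± 0.22, SE, edgeR adjusted p = 0.188). The olfactory level was 98.5% of its level per kilobase in the controls and 115% with ABCC1, so its level was not above background in either line.

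Identifiers without a symbol made up 17 of the 205 called well-expressed genes, 11 higher and 6 lower, with log2FC from -2.03 to 3.69. They are outside the named genes. The remaining 188 with a symbol ranged from -1.12 (PCK2) to 2.31 (EGR1).

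The other experiments of the series share no library with the third and gave each gene a separate value. Of the 205 genes, all were tested in the second experiment and 196 had the same sign there (95.6%, Wilson 95% interval 91.9 to 97.7%). There 70 were called in the same direction, 63 higher and 7 lower, and none in the opposite direction. Of all well-expressed genes, 3.13% were called higher and 0.657% lower in the second experiment, and 78.9% had a positive log2FC. In the first experiment, for which the labels and the study's methods name different library kits, 182 were tested, 177 had the same sign (97.3%, Wilson 95% interval 93.7 to 98.8%), 139 were called in the same direction and 1 in the opposite one. Of the well-expressed genes tested there, 16% were called higher and 24.2% lower, and 46.3% had a positive log2FC. The intervals treat genes as independent, which they are not. Of the 205 well-expressed calls, 60 were called in the same direction in all 3 experiments, 56 higher and 4 lower.

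EGR1 had a log2FC of 2.31, 1.47 and 0.96 in the third, second and first experiments, and ARC of 2.24, 1.51 and 1.18, and both were called in each. RRS1 (1.09, 0.86 and 0.36) and NOP2 (0.87, 0.75 and 0.37) were called in each as well. PCK2 was at -1.12, -0.66 and -0.71, and WARS1 at -1.06, -0.21 and -0.59, and neither was called in the second. DLK1 was at -1.10, -0.30 and -1.16 and RGS16 at -1.11, -0.46 and -1.31. PHOX2A was at -0.68, 0.03 and -0.48. TIMP3 was at -0.90, -0.72 and -1.95, with an adjusted p of 0.0599 in the second by edgeR. A fit of both repeat experiments tested whether these values differ. The log2FC of the third and the second experiments differed in 3 of 41448 genes (0.00724%), none of them well expressed, and for WARS1 the difference was -0.82 with an edgeR adjusted p of 0.711.

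**Figure D5:**
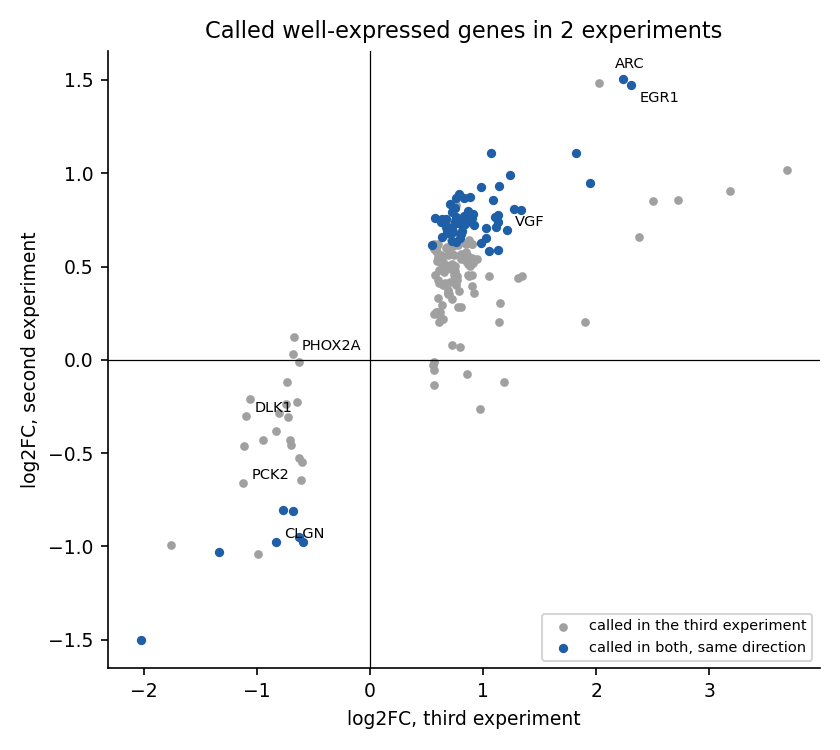
Log2FC of the 205 called well-expressed genes in the third experiment (x axis) and in the second (y axis). Blue points were called in both in the same direction (70 genes), and 196 points lie in the quadrants of equal sign.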

How the data were processed

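Libraries were made from total RNA with a SMARTer Pico kit that marks the strand. The authors aligned the reads to GRCh37 with STAR 2.7.3a (per the submitters' processing notes) and deposited counts of read pairs on exons from featureCounts (Subread 2.0.0). Per the file headers these counts use no strand option, so sense and antisense genes that overlap cannot be told apart. The counts cover 57905 Ensembl genes, 92 spike-in controls, all at 0 counts in these libraries, and 6 vector sequences. Only Ensembl genes entered library sizes and the counts of calls.

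The test was that of edgeR 4.0.16 under R 4.3.3 (filterByExpr at a minimum count of 10, TMM, robust quasi-likelihood test, two-sided, line as the only term). The p-values were adjusted over all tested genes by the Benjamini-Hochberg method, and a gene was called at an adjusted p of at most 0.05. Values per library are TMM-normalized counts (CPM, scaled to a library of 1000000), and ± after a log2FC is its standard error. With 3 libraries per line the smallest exact permutation p is 0.1. The first and second experiments were fitted alone, and the third and second also together for the interaction. Alternatives were DESeq2 1.42.0, limma-voom 3.58.1, other filters and size factors, a replicate block, background as a covariate or subtracted, and each library left out. Pairs of libraries of a line differed by 3.52 to 9.20 in chi-square per degree of freedom, so no pair was taken as the same library. In counts simulated for 36509 genes, changes were put into 200 well-expressed genes alone, and the split between the libraries was not simulated. Of these changes, 96% of 2-fold and 98% of 4-fold ones were recovered in the third experiment. The shares do not cover genes near background. For the interaction, over 36210 genes, 70% and 97% were recovered.

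Symbols were found for 51996 genes. Named genes were, among well-expressed called genes with no overlap, the 15 largest rises and 15 largest falls, up to 4 called members of each list with the lowest adjusted p (the 2 most abundant where fewer were called), and the genes the study is about. Other genes were named after their values were seen. A few genes and a list that the rule names are not reported here. The members and lists were chosen with earlier results of these data known. Promoter sequences are from RefSeq on GRCh38.p14. Intervals and the floor of 3 counts allow for counting error alone, as no molecular identifiers tell copies of one molecule apart.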

Additional observations from a re-analysis of the deposited data

Results flagged for a closer look

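The log2FC of ABCC1 cells against empty vector cells differed between the third and second experiments for 3 genes by the interaction test in edgeR. ANXA10 had a log2FC of -0.02 in the third experiment and -4.14 in the second, a difference of 4.14 (edgeR adjusted p = 6.03e-05). Its counts in the third correspond to 2.36, 2.81 and 2.18 CPM in the controls and 2.99, 1.98 and 2.31 CPM with ABCC1, at 0.893 times the olfactory level. JCHAIN had a log2FC of 0.76 in the third and -3.25 in the second, a difference of 4.05 (edgeR adjusted p = 0.00194), also at 0.893 times the olfactory level. NPY, which encodes neuropeptide Y, had 12.2, 18.0 and 16.7 CPM in the controls and 9.55, 13.1 and 10.2 CPM with ABCC1 in the third. Its log2FC was -0.52 in the third and 1.52 in the second, a difference of -2.01 (edgeR adjusted p = 0.00194), and it stood at 9.59 times the olfactory level. NPY overlapped between the lines of the third experiment and was not called there.

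The vector EGFP sequence, which the labels name for neither line, was counted 15, 9 and 4 times in the controls and 1, 0 and 0 times with ABCC1. All 3 controls were above the floor of 3 counts.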

How the results depend on the processing

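Calls numbered 1021 over all genes and 205 among well-expressed genes, 177 higher and 28 lower. With at least 10 counts in every library they were 1726, 342 and 305 higher. DESeq2 gave 1597, 430 and 397 higher. With background as a covariate they were 99, 37 and 16 higher, and the median log2FC of well-expressed genes turned to -0.16 from 0.15. With background subtracted, 313 well-expressed genes were called, 151 of them lower, and the median was -0.00642. Protein-coding genes alone gave 1900, 420, 344 higher and 76 lower. With the spread of 12 libraries 650 genes were called and 9 well-expressed ones were lower, and with RLE size factors 16 were lower. The fit of well-expressed genes alone gave 908, 458 higher and 450 lower, with a median of 0.0114. At 5 and 20 times the olfactory level 486 and 75 were called, 421 and 62 higher and 65 and 13 lower. A replicate block in the fit gave 1885 calls, 376 of them well expressed, 317 higher and 59 lower. The numbers do not pair the libraries by the labels, and the correlation of same-numbered deviations was 0.07 on average, from -0.07 to 0.23.

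Leaving out one library gave 393 to 2770 calls over all genes and 87 to 774 among well-expressed genes, 74 to 741 higher and 11 to 33 lower, with a median log2FC of 0.11 to 0.28. The most calls came without empty vector replicate 2. The number of genes that differed between experiments was 3 or 4 in each alternative. The share with the same sign in the second experiment was 97.7% for the list at 5 times the olfactory level and 92.0% for that at 20 times, and in the first 93.1% for the DESeq2 list. Among 134 called and 43 uncalled genes named or listed, no called log2FC reversed in any alternative, calls were kept in 1733 and lost in 477 of their comparisons, and 27 comparisons of uncalled genes passed the threshold. Levels at or near the olfactory level, such as that of CD38, were not told apart from background.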
